A study of Mus musculus with 4 samples.

Results

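Amino acid transporter genes were compared between epidermal cells of newborn mice with a catalytically inactive Polycomb repressive complex 1 (PRC1) and control epidermal cells. The genes were taken by symbol, as every counted gene of the solute carrier families SLC1, SLC3, SLC6, SLC7, SLC36 and SLC38 except Slc38a4, which gave 62 of the 24453 genes counted. They comprised 7 SLC1, 2 SLC3, 22 SLC6, 16 SLC7, 5 SLC36 and 10 SLC38 genes. Of these, 3 (Slc6a19os, Slc7a6os and Slc36a1os) are named for the strand opposite a transporter gene and are not transporters, and the SLC6 family also holds carriers of monoamines, taurine and creatine. RNA was sequenced from 2 mutant libraries (Ring1a-/- Ring1b-/I53A, called I53A here) and 2 control libraries (CTL), all from back skin at postnatal day 0, sorted for EpCAM, Sca1 and high α6-integrin. In the mutant genotype the Ring1a gene (Ring1) is deleted and Ring1b (Rnf2) is present as a null allele over the I53A allele, whose protein lacks ubiquitin ligase activity. The labels give no alleles for the controls and name neither a driver of deletion nor whether a library is 1 animal, so p-values measure the spread between these libraries.

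Amino acid transporters carry amino acids across the plasma membrane, or across the membranes of lysosomes and synaptic vesicles. SLC7 proteins of the light chain type reach the cell surface only as a heterodimer with an SLC3 heavy chain, whereas the cationic amino acid transporters of the same family work alone. Epidermal cells need amino acids for keratin and envelope proteins, take up cystine for glutathione, and adjust several of these carriers when amino acids run short. PRC1 is known for occupying promoters rich in the dinucleotide CG and for keeping genes of other lineages silent there.

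Total counts were 15966412 and 21543385 in the I53A libraries and 17010432 and 15505018 in the CTL libraries, of which members held 0.291% to 0.334%. Ring1 had 2.54 and 2.91 CPM (reads relative to the scaled library total) in I53A, against 24.2 and 33.3 CPM in CTL (log2 fold change -3.38 ± 0.31, adjusted p = 0.000172). Rnf2 had 58.9 and 59.1 CPM in I53A and 58.5 and 45.8 CPM in CTL (adjusted p = 0.681), and counts per gene do not show the I53A substitution. I53A replicate 1 was the male library among 3 female ones: Xist was at 11.0 CPM there and at 5998 CPM in I53A replicate 2, against 7261 and 8390 CPM in CTL, and the Y-linked gene Ddx3y had 1868 reads there and 1 or 2 in each other library. Basal keratinocyte and sort markers were present in each library, with Krt5 at 14040 and 11505 CPM in I53A and 17517 and 21216 CPM in CTL, and Epcam at 133 and 159 CPM in I53A and 107 and 85.9 CPM in CTL. Of 8 such markers Krt15 fell and 7 did not pass the test, and their summed level was 18695 to 21434 CPM in I53A and 27312 to 30749 CPM in CTL. Of these 8 markers 4 had an unadjusted p under 0.05, 2 had a positive log2 fold change, and DESeq2 called 4 and limma-voom 3. Markers of dermal fibroblasts summed to 2098 to 2203 CPM in I53A and 1473 to 1576 CPM in CTL, with 1 of 8 (Dcn) higher. All 8 had a positive log2 fold change, and 6 had an unadjusted p under 0.05, against 18.7% of all genes tested. Hair follicle markers summed to 742 to 779 CPM in I53A and 534 to 537 CPM in CTL, with 1 of 11 (Lhx2) higher and 3 (Krt71, Krt27 and Tchh) lower. Krt17 and Sox9, which did not pass, made up most of that sum. Of these 11 markers 8 had an unadjusted p under 0.05, 6 had a positive log2 fold change, and DESeq2 called 7 and limma-voom 3. Merkel cell markers summed to 19.7 to 26.1 CPM in I53A and 6.96 to 8.75 CPM in CTL, most of it Piezo2, which rose, and Sox2 and Krt20 had no reads in CTL. The 6 markers of Schwann cells and neurons summed to 5.86 to 7.06 CPM in I53A and 2.14 to 8.35 CPM in CTL. Skeletal muscle markers summed to 1.15 to 3.97 CPM in I53A and 5.90 to 7.74 CPM in CTL, and Myh4, with no reads in I53A, was called lower (adjusted p = 0.0193). No marker passed edgeR's test among those of endothelium (36.6 to 38.3 CPM in I53A and 21.7 to 36.05 CPM in CTL), immune cells (142 to 323 CPM in I53A and 147 to 291 CPM in CTL, with Cd3g at 0), melanocytes (18.8 to 22.3 CPM in I53A and 17.4 to 19.6 CPM in CTL) and sebaceous glands (222 to 259.8 CPM in I53A and 207 to 241 CPM in CTL). An unadjusted p under 0.05 was found for 1 gene each of the immune, melanocyte and sebaceous lists and 0 of the endothelial list, and DESeq2 called 1 immune gene and limma-voom 0. What these other cells contributed to the transporter results was not tested, and in bulk RNA a change in the number of cells of a type cannot be told apart from a change in RNA per cell.

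In I53A epidermis 5 transporter genes rose and 1 fell. The glutamine carrier Slc38a1 and the vesicular carrier Slc6a17 were 8.46-fold and 7.01-fold higher, Slc7a10 appeared where the controls had a single read, and the cystine carrier Slc7a11 and the cationic carrier Slc7a2 were 3.96-fold and 1.71-fold higher. The glutamate carrier Slc1a3 fell to 0.612 of its control level. The abundant carriers Slc38a2, Slc6a6, Slc7a1 and Slc3a2 did not pass the test. A gene was called at an adjusted p under 0.05 in edgeR's quasi-likelihood test, with Benjamini-Hochberg adjustment over all 14550 genes that passed a filter on low counts. That filter kept 36 of the 62 members, of which 30 did not pass the test. Of the 36 members 5 (13.9%) were called higher and 1 lower, against 5.68% and 1.04% of all genes tested. In either direction 6 members were called, against 6.71% of all genes, and 12 members had an unadjusted p under 0.05, against 18.7% of all genes.

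The median log2 fold change of the 36 tested members was 0.11, and 23 of them were positive, beside a median of -0.01 and 48.4% positive among all tested genes. The 2 groups did not overlap, with I53A higher, for 12 members and, with I53A lower, for 3, where 24.5% and 23.5% of all tested genes did so. Slc7a10 passed the filter only through the I53A libraries. The filter applied to CTL alone would have kept 34 members, of which 4 were called higher and 1 lower, against 5.17% and 1.12% of the genes kept that way. Correction for GC content and transcript length by offsets in the fit moved the median of all genes to -0.11. The median of the members was -0.03 and 15 were positive under it, while all 6 called members stayed called in the same direction. Among calls over all genes 84.5% were higher, against 57.9% with the offsets. The plot of fold changes by family shows Slc7a10, Slc38a1, Slc6a17 and Slc7a11 farthest to the right, and most other members within 1 unit of 0.

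**Figure D1:**
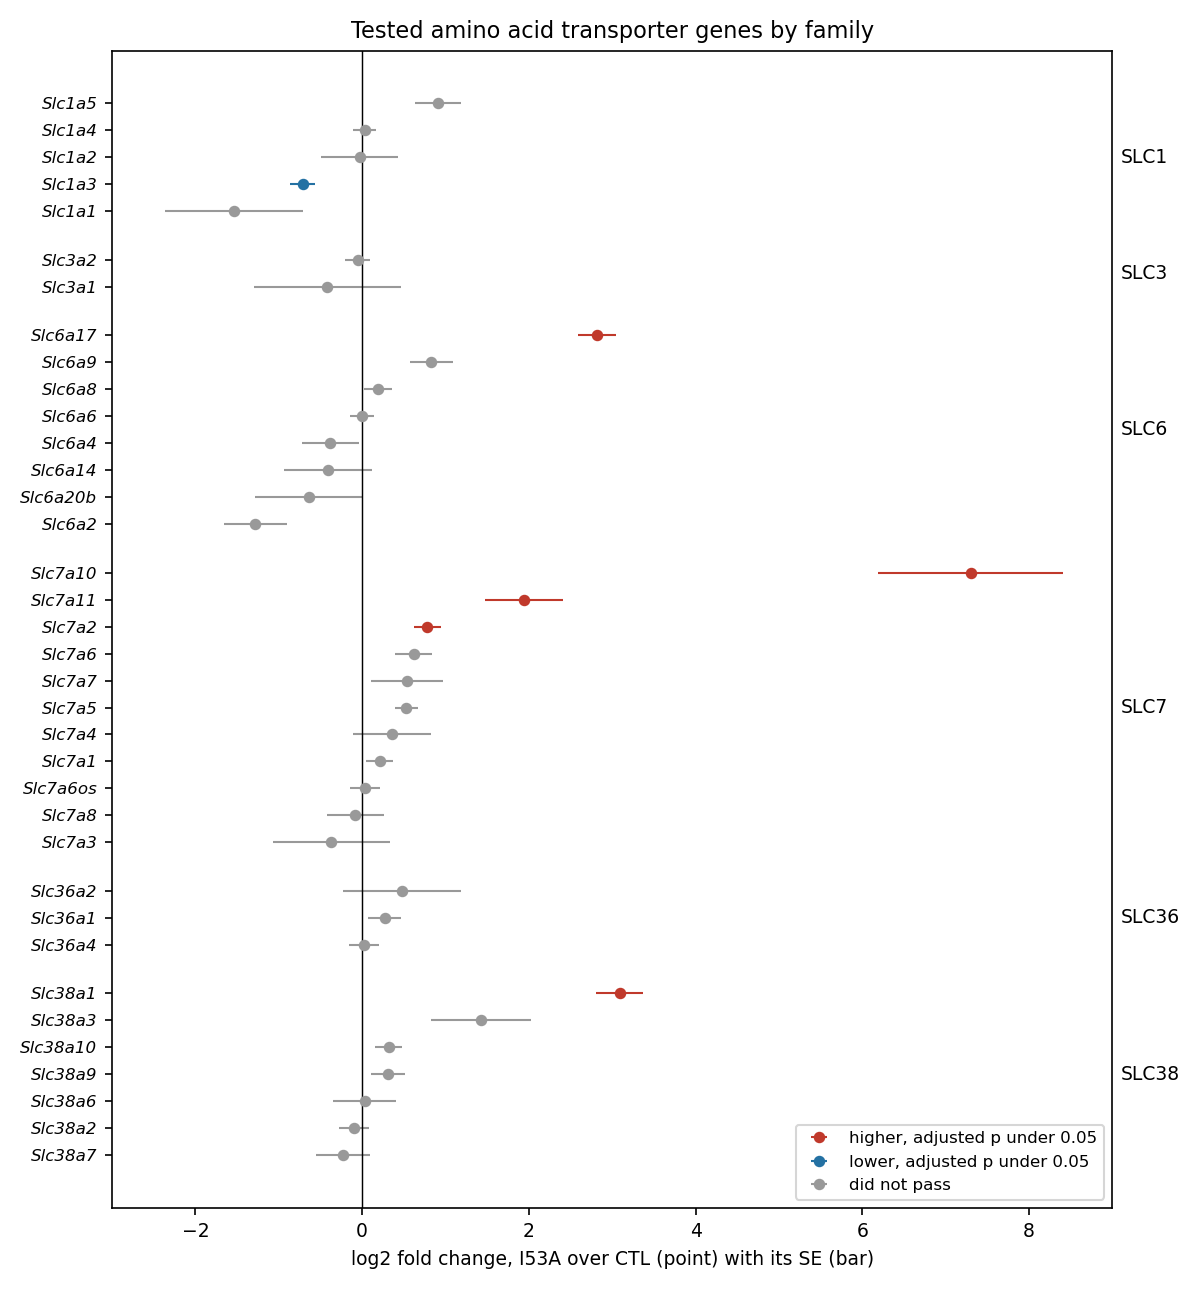
Log2 fold change of I53A over CTL (x axis) for the 36 tested members, grouped by family on the y axis, with bars for the standard error and colour for the call. Slc7a10 lies at 7.30 and Slc38a1 at 3.09, Slc1a3 at -0.71 is the called decrease, and 30 members did not pass.

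The SLC38 family carries glutamine and other small neutral amino acids together with sodium. Slc38a1 (SNAT1), which imports glutamine, had 56.1 and 86.2 CPM in I53A replicates 1 and 2, against 6.55 and 10.3 CPM in CTL replicates 1 and 2. Every I53A library lay above both controls. Its mean was 71.1 ± 21.3 CPM in I53A and 8.41 ± 2.63 CPM in CTL (SD, n = 2 each), and the log2 fold change was 3.09 with an SE of 0.28 at an adjusted p of 0.00018. Slc38a1 is a minus-strand gene of chromosome 15 that spans bases 96571418 to 96642913 in GRCm38 (mm10), and its relative Slc38a2 lies 44.5 kb away. Slc38a2 (SNAT2), the carrier that cells induce when amino acids are scarce, had 1127 and 816 CPM in I53A, against 1129 and 946 CPM in CTL. These groups overlapped (log2 fold change -0.10 ± 0.18, adjusted p = 0.853). Per kb of transcript, Slc38a1 made up 4.02% and 8.16% of the sum of both genes in I53A, and 0.486% and 0.905% in CTL, so that Slc38a2 stayed the far more abundant of the pair.

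Other SLC38 genes did not pass the test. Slc38a3 (SNAT3), a glutamine carrier, had 1.85 and 2.91 CPM in I53A, against 1.01 and 0.795 CPM in CTL (log2 fold change 1.42 ± 0.60, adjusted p = 0.231). Its groups did not overlap, at 29 and 66 reads in I53A and 17 and 12 reads in CTL. Slc38a9, the lysosomal arginine sensor of mTORC1, had 36.8 and 29.6 CPM in I53A, against 25.9 and 27.4 CPM in CTL (0.31 ± 0.20, adjusted p = 0.469). Slc38a10 had 56.1 and 56.2 CPM in I53A and 45.2 and 44.5 CPM in CTL (0.32 ± 0.16, adjusted p = 0.320). Slc38a6 and the lysosomal carrier gene Slc38a7 ran between 5.33 and 9.11 CPM in all libraries, with overlapping groups.

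The SLC6 family couples uptake to sodium and chloride, and many of its members clear neurotransmitters. Slc6a17 (NTT4), a carrier of neutral amino acids known from synaptic vesicles, had 51.8 and 49.1 CPM in I53A, against 5.83 and 8.55 CPM in CTL. The I53A libraries were close to each other and far above both controls. Its mean was 50.4 ± 1.90 CPM in I53A and 7.19 ± 1.92 CPM in CTL (SD, n = 2 each), for a log2 fold change of 2.82 with an SE of 0.23 (adjusted p = 0.000115). Its nearest tested neighbour on one side, the potassium channel gene Kcnc4 at 7.99 kb, did not pass (2.31, adjusted p = 0.253).

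The promoter of Slc6a17 is shown with those of Slc7a10, which also rose, and of Slc1a3, which fell, as examples with many and with few CG dinucleotides, which stand in capitals. Each is the window from 250 bases before to 50 bases after the start site in RefSeq on GRCm38.p6, read 5′ to 3′ along the gene. Slc6a17 has 2 start sites in that table and the upstream one is printed. Their positions are chr3:107517969-107518268 (minus strand) for Slc6a17, chr7:35186135-35186434 (plus strand) for Slc7a10 and chr15:8710758-8711057 (minus strand) for Slc1a3.
Slc6a17: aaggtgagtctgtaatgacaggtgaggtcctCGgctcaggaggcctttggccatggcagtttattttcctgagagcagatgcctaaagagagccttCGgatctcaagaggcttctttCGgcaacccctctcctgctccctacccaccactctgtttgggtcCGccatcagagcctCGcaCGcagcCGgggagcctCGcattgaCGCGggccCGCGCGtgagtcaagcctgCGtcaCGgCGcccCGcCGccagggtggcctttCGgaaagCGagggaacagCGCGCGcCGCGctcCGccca
Slc7a10: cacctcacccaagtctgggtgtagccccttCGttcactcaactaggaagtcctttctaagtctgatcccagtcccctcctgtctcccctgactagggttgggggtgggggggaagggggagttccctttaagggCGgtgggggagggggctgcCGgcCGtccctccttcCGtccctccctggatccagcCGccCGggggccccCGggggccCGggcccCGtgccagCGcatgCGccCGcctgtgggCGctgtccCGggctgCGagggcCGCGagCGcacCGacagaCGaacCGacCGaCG
Slc1a3: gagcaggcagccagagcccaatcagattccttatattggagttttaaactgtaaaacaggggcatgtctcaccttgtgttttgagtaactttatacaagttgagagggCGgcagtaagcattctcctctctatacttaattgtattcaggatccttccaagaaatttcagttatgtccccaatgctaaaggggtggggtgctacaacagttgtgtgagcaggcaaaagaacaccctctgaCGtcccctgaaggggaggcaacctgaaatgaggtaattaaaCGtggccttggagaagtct
These windows hold 26, 24 and 3 CG dinucleotides, where the median over all 32851 promoters in the table is 7 and that over 63 promoters of 45 members is 10. A count of 26 is higher than in 83.1% of all promoters, 24 than in 80.0%, and 3 than in 23.3%. Low counts also occur among genes that rose: the other start site of Slc6a17 has 3, as Slc1a3 does, and Slc7a11, which rose, has 4. Members that did not pass include windows with more CG, such as 41 for Slc38a2, 32 for Slc36a4 and 32 for Slc1a1. The table has no entry for Slc38a1 or Slc7a2.

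The other 7 tested SLC6 members did not pass the test. Slc6a6, the taurine carrier, had 533 and 494 CPM in I53A and 486 and 541 CPM in CTL (log2 fold change 0.00 ± 0.14, adjusted p = 0.998). The creatine carrier gene Slc6a8, on the X chromosome, had 154 and 112 CPM in I53A, against 114 and 119 CPM in CTL, so that the male library stood above the other 3 (0.19 ± 0.17, adjusted p = 0.651). The glycine carrier gene Slc6a9 (GlyT1) had 34.3 and 35.2 CPM in I53A, against 25.1 and 13.9 CPM in CTL. Its groups did not overlap, but the difference missed the threshold (0.83 ± 0.26, adjusted p = 0.0991), with 0.0498 under DESeq2 and 0.0314 to 0.628 over all alternatives. Exons of Slc6a9 share 1429 bases with the gene Ccdc24 and 46 with B4galt2 on the opposite strand. Ccdc24 did not pass the test (log2 fold change 0.55, adjusted p = 0.616), and B4galt2 rose (1.42, adjusted p = 0.0141).

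Monoamine carriers of the family were also detected. Slc6a2, the noradrenaline carrier, had 4.84 and 6.79 CPM in I53A, against 19.3 and 9.34 CPM in CTL. It was lower in each I53A library than in each control, though the controls also differed from each other, and missed the threshold (log2 fold change -1.28 ± 0.38, adjusted p = 0.0821). The adjusted p was 0.0241 with DESeq2 and 0.0365 without I53A replicate 2, and ran from 0.00518 to 0.678 over all alternatives. Slc6a4, the serotonin carrier, had 13.7 and 9.30 CPM in I53A and 10.2 and 19.5 CPM in CTL, with overlapping groups. Slc6a14, a carrier of neutral and cationic amino acids on the X chromosome, had 2.04 and 3.57 CPM in I53A and 5.48 and 2.12 CPM in CTL, and Slc6a20b, a close paralog of Slc6a20a with which it may share reads, was at most at 2.38 CPM, and 1800 of its 8538 exonic bases are also exon of Sacm1l on the opposite strand.

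Of the 16 SLC7 genes 11 were tested, 3 rose, and 9 had a positive log2 fold change, against 5.68% called higher and 48.4% positive among all genes tested. Of its 10 genes that CTL alone would have kept, 2 rose, against 5.17% of all genes kept that way. The family, counted with Slc7a6os, had the highest median of the 6, at 0.53. That median is the value of Slc7a5, which moved to 0.25 with the GC and length offsets. The light chains of SLC7 pair with the heavy chain Slc3a2 (CD98), and include Slc7a5, Slc7a6, Slc7a7, Slc7a8, Slc7a10 and Slc7a11. Slc7a10 (Asc-1) exchanges small neutral amino acids and D-serine. It had 62 and 177 reads in the I53A libraries, against 1 and 0 reads in the CTL libraries, or 3.94 and 7.80 CPM in I53A against 0.0595 and 0.00 CPM in CTL. The pooled ratio was 198, with an exact 95% interval of 35.3 to 7870.5 that covers counting error only, and the adjusted p was 0.00299.

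Slc7a10 lies on chromosome 7 from 35186385 to 35201114 on the plus strand, and 377 of its 2111 exonic bases are also exon of Lrp3 on the opposite strand. Lrp3, a gene of the LDL receptor family, rose as well, with 41.2 and 28.1 CPM in I53A against 4.94 and 5.04 CPM in CTL (log2 fold change 2.79 ± 0.29, adjusted p = 0.00038). The strand setting of the counting is not given in the sources used here, so reads of the shared bases cannot be told apart. Slc7a10 had 9.57 and 27.8 reads for each 100 reads of Lrp3 in I53A, and 1.20 and 0.00 in CTL. I53A replicate 1 had more Lrp3 in CPM and less Slc7a10 than I53A replicate 2, though their Lrp3 reads were close, at 648 and 637. Whether reads of Lrp3 entered the count of Slc7a10 was not tested. The neighbours on the other side, Cebpa and Cebpg, did not pass the test (adjusted p = 0.511 and 0.962).

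Slc7a11 (xCT) imports cystine in exchange for glutamate and so feeds glutathione synthesis. It had 7.95 and 7.05 CPM in I53A, against 2.86 and 0.928 CPM in CTL, a mean of 7.50 ± 0.637 CPM in I53A and 1.89 ± 1.36 CPM in CTL (SD, n = 2 each). The I53A libraries were alike, and the controls differed from each other by more. Its log2 fold change was 1.94 with an SE of 0.47 and an adjusted p of 0.0365. The size rests on the controls, at 3.0 without CTL replicate 1 and 1.39 without CTL replicate 2. This call was lost with limma-voom (adjusted p = 0.0533), with the earlier quasi-likelihood fit (0.0564), without CTL replicate 1 (0.0604) and without CTL replicate 2 (0.296), and over all alternatives the adjusted p ran from 0.00392 to 0.296.

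Slc7a11 is known as a target of ATF4, the transcription factor of the amino acid response, which binds elements of the form TGATGNAA. Its promoter at chr3:50443564-50443863 (minus strand) is shown because it holds this motif on both strands, printed in capitals from positions 185 and 204 of the window.
Slc7a11: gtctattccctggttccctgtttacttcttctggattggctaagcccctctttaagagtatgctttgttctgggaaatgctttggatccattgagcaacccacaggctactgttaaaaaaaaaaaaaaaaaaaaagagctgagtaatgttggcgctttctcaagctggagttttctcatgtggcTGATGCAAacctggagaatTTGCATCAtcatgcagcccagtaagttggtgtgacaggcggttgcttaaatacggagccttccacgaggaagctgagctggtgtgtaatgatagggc
The motif was searched as TGATGNAA and, for the other strand, TTNCATCA, and occurs in 3.97% of all promoters of this length. Among members it was found in 5 promoters of 4 genes, Slc7a11, Slc1a4, Slc7a7 and Slc6a21. Slc1a4 and Slc7a7 did not pass the test, and Slc6a21 had no reads.

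The remaining light chains did not pass. Slc7a5 (LAT1), which imports large neutral amino acids such as leucine, had 207 and 181 CPM in I53A, against 130.0 and 139 CPM in CTL. Its groups did not overlap and it fell just short of the threshold (log2 fold change 0.53 ± 0.14, adjusted p = 0.0553). With the GC and length offsets, alone and with the replicate block, the log2 fold change was 0.25 in both (adjusted p = 0.351 and 0.354). The adjusted p was 0.0268 with DESeq2 and 0.00831 without I53A replicate 2, and ran up to 0.443 over the other alternatives. Slc7a6 (y+LAT2) had 21.8 and 21.6 CPM in I53A, against 15.2 and 12.9 CPM in CTL (0.62 ± 0.22, adjusted p = 0.156). Slc7a7 (y+LAT1) and Slc7a8 (LAT2) had overlapping groups, at 2.80 to 10.7 CPM over all libraries. Slc7a6os, on the strand opposite Slc7a6, stayed between 28.6 and 29.9 CPM in the 4 libraries (0.03 ± 0.18, adjusted p = 0.961).

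The heavy chain gene Slc3a2 had 128 and 128 CPM in I53A and 120.2 and 145 CPM in CTL, with a log2 fold change of -0.05 ± 0.15 (adjusted p = 0.923). Slc3a1 (rBAT), the heavy chain of the renal cystine carrier, had 5 to 22 reads per library. Per kb of transcript, the 6 light chains summed to 71.1 and 66.8 CPM in I53A and 44.1 and 47.6 CPM in CTL. Their ratio to Slc3a2 was 1.56 and 1.46 in I53A, against 1.03 and 0.923 in CTL. Slc7a5, which did not pass, made up 82.6% and 77.2% of the light chain sum in I53A and 83.9% and 82.9% in CTL, so the ratio mostly reads Slc7a5 over Slc3a2. No test was run on this sum. The plot of light and heavy chains shows these values by library.

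**Figure D2:**
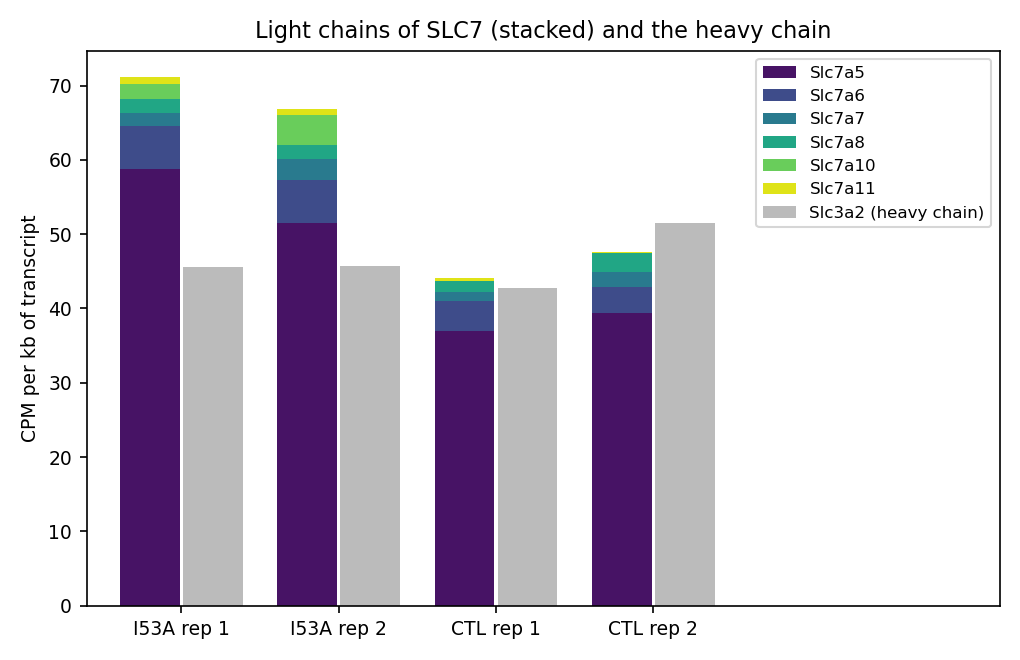
CPM per kb of transcript (y axis) in each library (x axis), with the 6 light chain genes of SLC7 stacked in the coloured bar and the heavy chain gene Slc3a2 in the grey bar. The stack reaches 71.1 and 66.8 in I53A and 44.1 and 47.6 in CTL, while the grey bars lie between 42.7 and 51.5.

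Cationic amino acid transporters of SLC7 bring in arginine, lysine and ornithine. Slc7a2 (CAT2) had 65.1 and 64.5 CPM in I53A, against 35.4 and 40.2 CPM in CTL. All I53A values lay above all controls, and its mean was 64.8 ± 0.431 CPM in I53A and 37.8 ± 3.44 CPM in CTL (SD, n = 2 each), which gave a log2 fold change of 0.78 with an SE of 0.16 (adjusted p = 0.0177). The call was lost without CTL replicate 1 (adjusted p = 0.274) and without CTL replicate 2 (0.137), against 0.00262 at the lowest of all alternatives. On the opposite strand, 635 of its 9135 exonic bases are also exon of Gm26584. Slc7a1 (CAT1), the common form, had 563 and 510 CPM in I53A and 398 and 530 CPM in CTL, with overlapping groups (0.21 ± 0.16, adjusted p = 0.581). Per kb, Slc7a2 made up 9.46% and 10.2% of the sum of Slc7a1, Slc7a2 and Slc7a3 in I53A, and 7.37% and 6.42% in CTL. Slc7a3 (CAT3), on the X chromosome, and Slc7a4 did not pass, at 0.663 to 3.37 CPM over all libraries.

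SLC1 holds carriers of acidic amino acids and the neutral carriers Slc1a4 and Slc1a5. Slc1a3 (GLAST), a carrier of glutamate and aspartate that has been used to label cycling cells of the skin epithelium, had 82.4 and 100.1 CPM in I53A, against 152 and 146 CPM in CTL. Both I53A libraries were below both controls. Its mean was 91.2 ± 12.5 CPM in I53A and 149 ± 3.88 CPM in CTL (SD, n = 2 each), which gave a log2 fold change of -0.71 with an SE of 0.15 (adjusted p = 0.0193). Without CTL replicate 1 the adjusted p was 0.231 and without CTL replicate 2 it was 0.181, against 0.000621 at the lowest of all alternatives. On the same chromosome 15, Slc1a3 spans bases 8634124 to 8710764 of the minus strand, and its tested neighbours Nipbl and Ranbp3l did not pass (adjusted p = 0.791 and 0.720).

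The neutral carriers of SLC1 did not pass the test. Slc1a5 (ASCT2), which exchanges glutamine, had 19.3 and 30.4 CPM in I53A, against 11.7 and 15.1 CPM in CTL, without overlap (log2 fold change 0.91 ± 0.28, adjusted p = 0.0866). The adjusted p was 0.0477 with DESeq2 and 0.00402 without I53A replicate 1, and ran up to 0.529 over the other alternatives. Slc1a4 (ASCT1), a carrier of alanine, serine and cysteine, had 88.6 and 86.3 CPM in I53A and 87.7 and 83.3 CPM in CTL (0.03 ± 0.14, adjusted p = 0.945). Slc1a1 (EAAT3) was low, with 8 and 5 reads in I53A and 14 and 18 reads in CTL, and Slc1a2 (GLT-1) overlapped between the groups. The plot of called members gives each library's level.

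**Figure D3:**
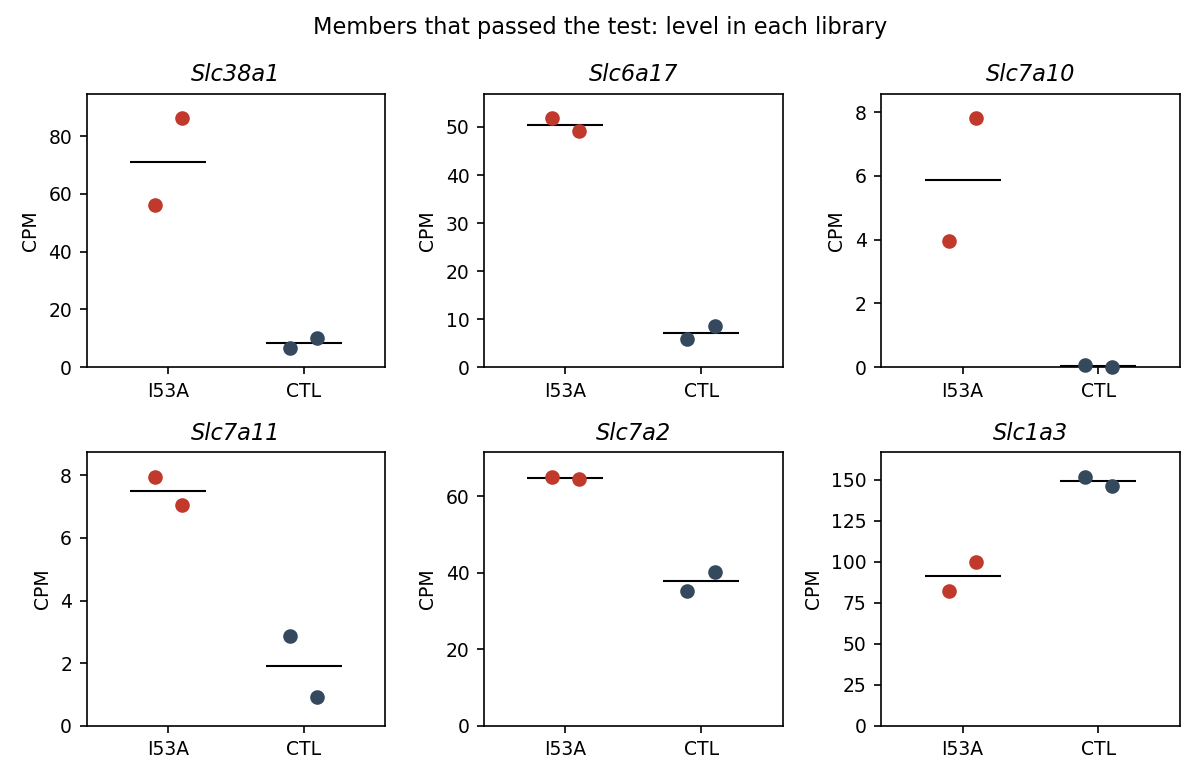
CPM (y axes, each from 0) of the 6 members that passed the test in the 2 I53A libraries (left, red) and the 2 CTL libraries (right, blue), with a line at each mean. The groups do not overlap in any panel, and the means run from 71.1 CPM in I53A against 8.41 CPM in CTL for Slc38a1 to 91.2 CPM against 149 CPM for Slc1a3.

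The SLC36 family carries small amino acids with protons, in part on lysosomes. Slc36a1 (PAT1) had 30.0 and 38.1 CPM in I53A and 26.7 and 30.2 CPM in CTL, and Slc36a4 (PAT4) had 36.6 and 34.6 CPM in I53A and 32.1 and 38.1 CPM in CTL. Slc36a2 (PAT2) was at most at 1.23 CPM. No SLC36 gene passed edgeR's test in either direction, nor did any with DESeq2 or limma-voom, and 0 of 3 had an unadjusted p under 0.05. The same held for the 2 SLC3 genes.

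Compared per kb of transcript, which allows levels of different genes to be set side by side, the order of the abundant members was much alike in both groups. Slc38a2 led with 159 CPM per kb in I53A and 170 CPM per kb in CTL, followed by Slc6a6 with 83.0 in I53A and 83.0 in CTL and by Slc7a1 with 74.7 in I53A and 64.7 in CTL. Next came Slc7a5 with 55.2 in I53A and 38.2 in CTL and Slc3a2 with 45.6 in I53A and 47.1 in CTL. Slc7a5 and Slc3a2 changed places between the groups, and their ranges over libraries overlapped in neither I53A (51.6 to 58.8 against 45.6 to 45.7) nor CTL (37.0 to 39.4 against 42.7 to 51.5). Among the 36 tested members Slc38a1 ranked 12 in I53A and 24 in CTL, Slc6a17 ranked 15 in I53A and 25 in CTL, and Slc7a10 ranked 21 in I53A and 36 in CTL. Slc7a10 at 3.01 CPM per kb in I53A was still lower than Slc38a9 at 3.72. The length used is that of the longest annotated transcript, so levels of genes with shorter main transcripts are understated.

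**Figure D4:**
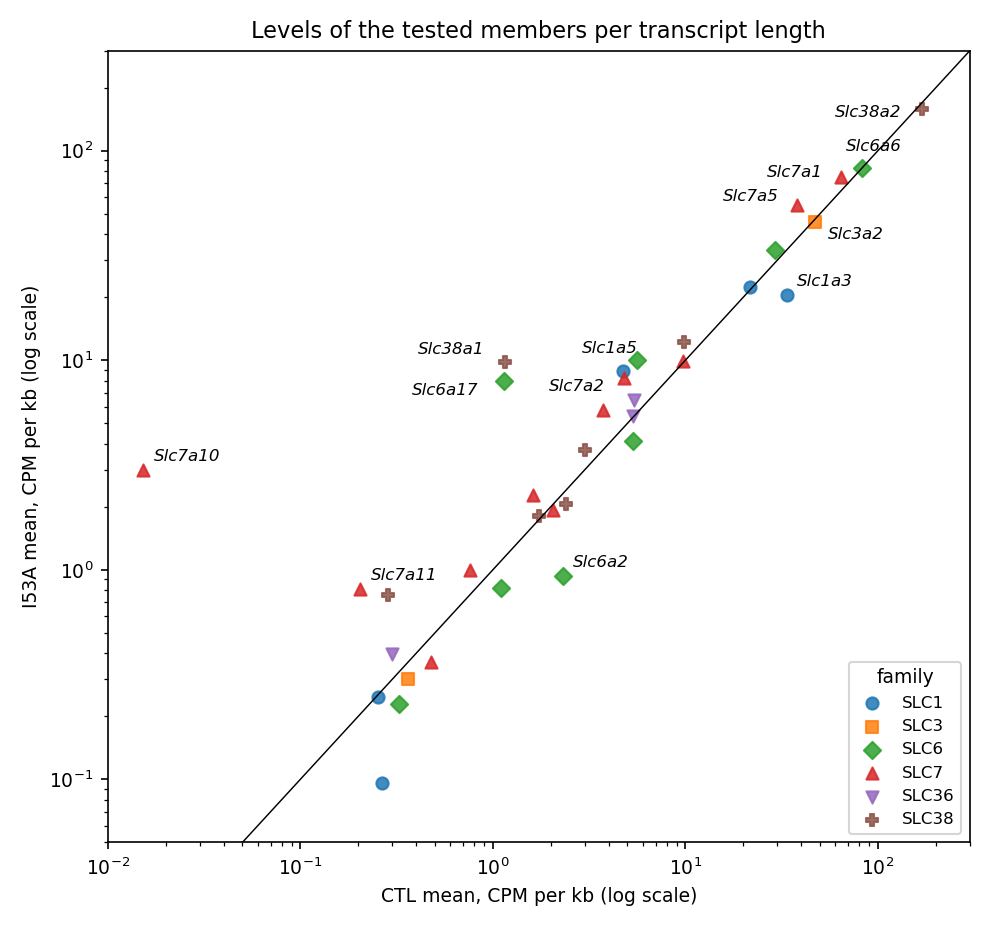
Mean CPM per kb of transcript of the 36 tested members in I53A (y axis, log scale) against CTL (x axis, log scale), with marker shape and colour for the family and a line where both are equal. Slc38a2 lies at the top near the line, and Slc38a1 (9.79 in I53A, 1.16 in CTL), Slc6a17 (7.98 and 1.14) and Slc7a10 (3.01 and 0.0152) lie farthest above it.

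Untested members were 26, of which 8 had no reads in any library: Slc6a5, Slc6a21, Slc7a13, Slc36a3, Slc38a5, Slc38a8, and the opposite-strand genes Slc6a19os and Slc36a1os. A further 13 had 1 to 9 reads over all libraries, among them Slc1a6, Slc1a7, Slc6a12, Slc6a13, Slc6a15, Slc6a16, Slc6a18, Slc6a19, Slc6a20a, Slc7a12, Slc7a14 and Slc38a11. A count of 0 in a library allows up to 3 reads, or 0.132 to 0.199 CPM, which is the upper limit for a member listed at 0 there. The other 5 were Slc6a3, Slc6a7, Slc6a11, Slc7a9 and Slc7a15, each with at most 23 reads in a library. Slc6a11, a GABA carrier, had 21 reads in I53A replicate 2 and none in I53A replicate 1 or in CTL. The carriers of dopamine (Slc6a3) and proline (Slc6a7) had 7 and 11 and 7 and 23 reads in I53A, against 3 and 3 and 5 and 7 reads in CTL.

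The calls were examined without each library in turn, which assumes that a group of 1 library has the spread seen in the remaining pair. The filter was not repeated: the genes tested were those kept with all libraries, and Slc7a10 is among them only through I53A. Slc38a1, Slc6a17 and Slc7a10 stayed called each time, with adjusted p of at most 0.0095, 0.00635 and 0.0413. Without I53A replicate 1, the male library, all 6 members stayed called, as they did without I53A replicate 2. Without CTL replicate 1 or CTL replicate 2, Slc7a11, Slc7a2 and Slc1a3 were lost, while over all genes 258 and 292 were called higher without each, against 826 with all libraries. The plot of fold changes without each library shows these values.

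**Figure D5:**
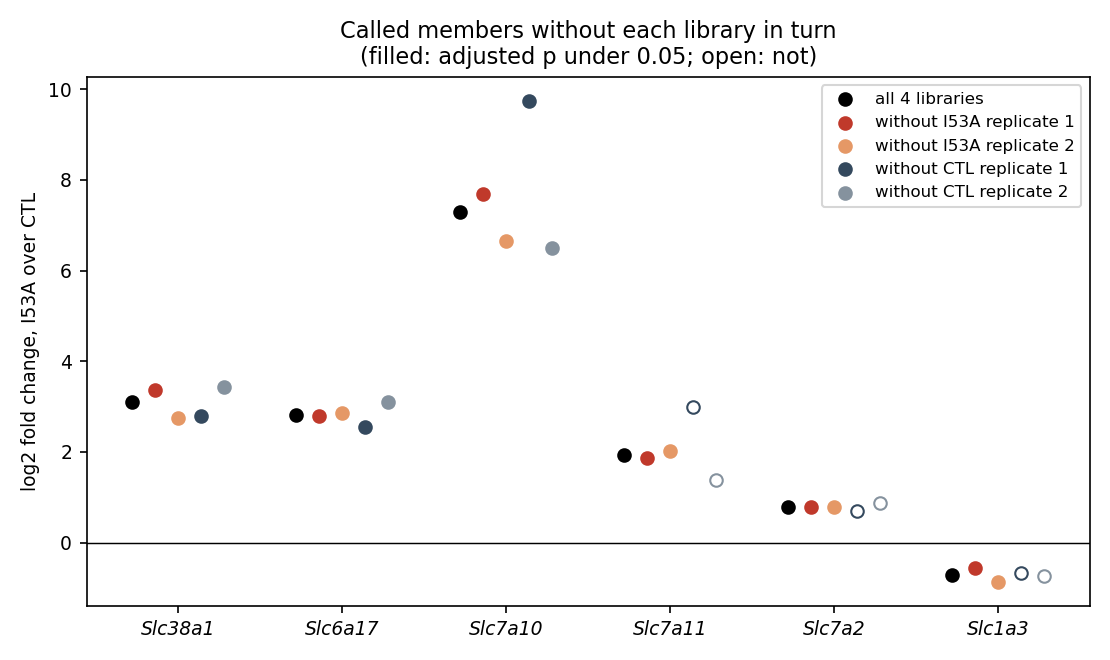
Log2 fold change of I53A over CTL (y axis) of the 6 called members (x axis) with all 4 libraries and without each library in turn, filled where the adjusted p was under 0.05. No value crosses 0, and Slc7a11, Slc7a2 and Slc1a3 have open points without either CTL library. The value of Slc7a10 at 9.74 without CTL replicate 1 is set by a control with no reads and is no bound.

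Genes of the amino acid response, which ATF4 switches on when amino acids are scarce, were set beside the carriers. Of 28 genes listed 26 were tested, and none passed edgeR's test, with 0 at an unadjusted p under 0.05 and 0 called with DESeq2 or limma-voom. Their median log2 fold change was -0.02, and 13 were positive. Of 33 genes of amino acid sensing upstream of mTORC1 in the files, 32 were tested and none passed edgeR's test, while 2 had an unadjusted p under 0.05, 1 was called with DESeq2 and 0 with limma-voom (median -0.07). Among 21 tested carriers of amino acids or peptides from other families, 1 (Slc43a3) rose, against 5.68% of all genes tested. Slc43a3 belongs to a family of large neutral amino acid carriers but is itself known as a carrier of purine nucleobases. It had 13.1 and 11.9 CPM in I53A, against 3.21 and 5.17 CPM in CTL (log2 fold change 1.59 ± 0.34, adjusted p = 0.0181).

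Among 25 tested enzymes of glutamate, glutamine, serine, glutathione and related metabolism, 2 rose and 1 fell, against 5.68% and 1.04% of all genes tested. Got1, the cytosolic aspartate aminotransferase, had 22.5 and 26.8 CPM in I53A, against 11.7 and 7.89 CPM in CTL (log2 fold change 1.33 ± 0.26, adjusted p = 0.0126). The brain-type creatine kinase gene Ckb had 12.7 and 15.6 CPM in I53A, against 6.61 and 6.76 CPM in CTL (1.09 ± 0.28, adjusted p = 0.0489). Oat, the ornithine aminotransferase, had 67.5 and 70.7 CPM in I53A, against 116 and 105.8 CPM in CTL (-0.68 ± 0.15, adjusted p = 0.0196). The calls of Got1, Ckb, Oat and Slc43a3 were lost without CTL replicate 1 and without CTL replicate 2, with adjusted p from 0.0603 to 0.332. That of Ckb was also lost without I53A replicate 2 (adjusted p = 0.105), with limma-voom (0.0601) and with the offsets (0.187), and its lowest over all alternatives was 0.0166.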

How the data were processed

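RNA of sorted epidermal cells was reverse transcribed and amplified with an Ovation kit and sequenced as single reads, per the labels' protocols. The authors deposited raw counts per gene symbol, not normalized. Tools listed per the submitters' processing notes, without a role, are HTSeq 0.6.1, TopHat2 2.0.13, DESeq2 1.6.3 and Cufflinks 2.2.1, and the build is mm10. For the annotation and strand setting, the sources used here give nothing.

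Members are symbols of the families SLC1, SLC3, SLC6, SLC7, SLC36 and SLC38. Members, lists and tests were chosen with earlier results of these data known. All genes were filtered with filterByExpr (minimum count 10, minimum total 15), scaled by TMM and tested two-sided with edgeR 4.0.16 (estimateDisp, glmQLFit with legacy=FALSE, glmQLFTest; R 4.3.3). CPM are counts scaled by the TMM-adjusted library size, and per kb values divide by the longest GENCODE M21 transcript on GRCm38, matched by symbol for 98% of tested genes. Replicates were distinct libraries, differing beyond sampling noise (chi-square per degree of freedom 35.4 in I53A and 13.1 in CTL). The fit was tested on simulated data, with 50 genes changed at each size. Each simulated gene had the spread typical of its level, not its own, and changes went up or down at random. In the real data gene spreads differ and most calls were higher, so the rate of false calls there was not tested. It recovered 8% of 1.5-fold, 46% of 2-fold, 82% of 4-fold and 96% of 8-fold changes, with 12 false calls. Most changes of 2-fold or less were missed there, so a gene that did not pass is not shown to be unchanged.

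The text names each called member, up to 3 uncalled members of highest mean CPM per family, untested members by name, and called genes of 4 lists. Other members were named after their values were seen. Alternatives were RLE scaling, limma-voom from limma 3.58.1, DESeq2 1.42.0, no filter, a filter of 1 CPM in 2 libraries, the replicate number as a block, loess offsets (span 0.5) for GC content and length alone and with the block, and each library left out. The earlier and robust quasi-likelihood fits were added after seeing the data. Promoters are RefSeq windows, found for 45 of 62 members. Some genes are not reported here by name.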

Additional observations from a re-analysis of the deposited data

How the results depend on the processing

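Under all alternatives run the 6 called members kept their direction. Slc38a1, Slc6a17 and Slc7a10 passed in each, and with DESeq2, RLE scaling, both other filters, the block and the offsets all 6 did. The calls lost were those of Slc7a11 with limma-voom and the earlier quasi-likelihood fit, and of Slc7a11, Slc7a2 and Slc1a3 without either CTL library. Members called higher by each fit were 8 with DESeq2, 8 with the replicate block and 3 to 6 without 1 library, against 5. Members called lower were 2 with DESeq2, without the low-count filter and with the GC and length offsets, with or without the block, and 0 to 2 without 1 library, against 1. Calls over all genes were 826 higher and 151 lower. Without 1 library they were 258 to 1131 higher and 34 to 389 lower. Lower calls were 232 with DESeq2, 232 with the replicate block, 538 with the offsets and 851 with the offsets and block. The share of higher among all calls was 84.5%, against 57.9% with the offsets and 53.7% with the offsets and block. Called genes of the pathway lists were 3 higher and 1 lower, and 2 lower with the offsets, 5 lower with the offsets and block, and 0 to 5 higher and 0 to 4 lower without 1 library. The correlation of deviations between same-numbered libraries was 0.0409, so the numbers were not taken to pair the samples. The cause of these shifts was not tested.

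Several members that did not pass changed sign. With the offsets, alone and with the block, this was so for Slc1a4 (-0.20 in both), Slc36a1 (-0.03 and -0.04), Slc36a4 (-0.14 in both), Slc38a10 (-0.03 in both), Slc38a6 (-0.03 in both), Slc6a8 (-0.12 and -0.14) and Slc7a6os (-0.02 in both), and Slc6a6 moved to -0.29 in both, against 0.00. Without 1 library the log2 fold change ran from -0.33 to 0.36 for Slc1a2, -0.04 to 0.78 for Slc36a2, -0.10 to 0.15 for Slc36a4, -0.34 to 0.12 for Slc38a2, -0.34 to 0.39 for Slc38a6, -1.24 to 0.93 for Slc3a1 and -0.18 to 0.09 for Slc3a2. It ran from -0.93 to 0.44 for Slc6a14, -1.63 to 0.11 for Slc6a20b, -0.77 to 0.16 for Slc6a4, -0.07 to 0.08 for Slc6a6, -0.05 to 0.40 for Slc6a8, -0.93 to 0.63 for Slc7a3 and -0.44 to 0.38 for Slc7a8. Slc3a1 had 5 to 22 reads per library and Slc7a3 had 10 to 33, which limits their values.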
